A study of Mus musculus with 4 samples.

Results

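The T cell receptor complex genes were taken as Cd3d, Cd3e, Cd3g, Cd247, Zap70, Lck and Lat, and every non-control probe carrying one of these names on the array was used. This gave 7 genes with 11 probes, out of 27745 gene names and 41174 probes. Of the 11 probes, 8 were well above background on at least 2 of the 4 arrays and were tested, among 27404 tested probes in all. Total RNA was compared between 2 samples of B220+ splenocytes from female C57BL/6N mice and 2 independently established B-cell lymphoma lines from dopamine receptor 3 transgenic mice, which carry the same strain and sex labels. B220 is a surface marker of B cells, so the splenocytes are a B cell enriched control. The ages of the mice, the promoter of the transgene, the purity of the B220+ fraction and any treatment are not given in the sources used here. Each line was measured on 1 array, and nothing in the labels says whether the splenocyte samples came from separate animals, and any p-value below rests on the spread among these 4 arrays alone, part of which may be technical. Transgene, transformation and growth as a line differ between the groups together and cannot be told apart.

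The T cell receptor is a pair of antigen-binding chains that cannot signal alone. It is carried to the surface with the CD3 gamma, delta and epsilon chains and the zeta chain (Cd247), whose tails hold immunoreceptor tyrosine-based activation motifs. The Src-family kinase Lck phosphorylates these motifs, the Syk-family kinase Zap70 docks on them, and Zap70 in turn phosphorylates the adaptor Lat, which gathers the downstream enzymes. In B cells the matching positions are taken by Cd79a and Cd79b, Lyn, Syk and Lat2, while Lck and Zap70 are best known from T and NK cells.

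All 4 arrays lay on 1 slide and were scanned once, and no spot was saturated on any of them. Between 24974 and 27319 probes were well above background per array. The 8 B cell markers examined were well above background on all 4 arrays. The log2 values correlated at 0.992 between the splenocyte samples and 0.990 between the lines across tested probes, and at 0.823 to 0.838 across the groups. Levels below are each array's signal as a percent of that array's 75th percentile signal, which sets no probe's level against another probe's. Differences are on the log2 scale, lines minus splenocytes, with the standard error from limma. A probe was called when its Benjamini-Hochberg adjusted p over all tested probes was under 0.05.

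The 3 CD3 genes lie side by side on chromosome 9, and their upstream sequences are printed here because the genes are neighbours whose differences between the groups were unlike. The windows are the 250 bases before each RefSeq start site in GRCm38.p6, on the gene's own strand, with matches to any of 5 short motifs in capitals. Cd3g is read from the minus strand at chr9:44980432-44980681, Cd3d from the plus strand at chr9:44981536-44981785 and Cd3e from the minus strand at chr9:45009612-45009861.
Cd3g: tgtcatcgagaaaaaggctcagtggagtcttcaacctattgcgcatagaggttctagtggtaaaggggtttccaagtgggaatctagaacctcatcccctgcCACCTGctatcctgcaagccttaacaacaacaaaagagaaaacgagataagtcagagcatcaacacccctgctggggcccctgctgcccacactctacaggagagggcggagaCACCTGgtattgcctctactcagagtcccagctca
Cd3d: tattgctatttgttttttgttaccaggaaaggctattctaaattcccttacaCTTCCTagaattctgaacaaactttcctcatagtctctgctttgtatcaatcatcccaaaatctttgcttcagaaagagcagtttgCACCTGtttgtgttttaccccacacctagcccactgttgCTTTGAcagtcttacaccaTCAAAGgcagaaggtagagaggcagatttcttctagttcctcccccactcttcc
Cd3e: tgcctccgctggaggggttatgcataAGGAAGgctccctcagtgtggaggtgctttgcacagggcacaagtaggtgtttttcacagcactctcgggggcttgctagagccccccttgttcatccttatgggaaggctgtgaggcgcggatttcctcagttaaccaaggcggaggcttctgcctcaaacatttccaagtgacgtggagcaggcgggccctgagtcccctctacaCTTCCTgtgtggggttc
The start sites of Cd3g and Cd3d were 1355 bases apart and pointed away from each other, and those of Cd3d and Cd3e were 27825 bases apart. The motifs were searched on both strands and do not overlap in these windows. They were the E-box CAGGTG (capitals CAGGTG or CACCTG), the ETS core AGGAAG (or CTTCCT), the TCF and LEF core CTTTGA (or TCAAAG), the RUNX core TGTGGT and the TATA box TATAAA. The Cd3g window held 2 E-boxes, 148 and 35 bases before the start. The Cd3d window held 1 E-box, 1 ETS core and 2 TCF and LEF cores, and the Cd3e window held 2 ETS cores. Neither the RUNX core nor the TATA box was matched in these 3 windows. Among 32851 RefSeq promoter windows of the same length, 17.2% held the E-box, 29.5% the ETS core, 13.8% the TCF and LEF core, 14% the RUNX core and 12.4% the TATA box. A match is a description of the letters and was not tied to the differences below.

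Cd3g, the gamma chain of CD3, was higher in the lymphoma lines. Its probe (A_51_P260889, chromosome 9, 44724628 to 44725212 in mm8, minus strand) read 28.9% and 25.8% of the 75th percentile in splenocyte samples 1 and 2. Lines 1 and 2 read 509% and 615%. Both lines stood far above both splenocyte samples, and each pair was close together. The difference was 4.36 ± 0.18 (SE, n = 2 against 2; limma adjusted p = 0.000249; 95% interval 3.89 to 4.83), a 20.5-fold higher level. Line 1 was 18.6-fold and line 2 22.5-fold above the splenocyte mean. Of all tested probes, 98.4% had a lower difference than this one. Leaving out any 1 array kept it between 4.22 and 4.49.

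Cd3d, the delta chain, was lower in the lines. Its probe (A_51_P285206, chromosome 9, 44737083 to 44737314, plus strand) read 65.1% and 48.6% in splenocytes, and 11.02% and 10.1% in the lines. The groups did not overlap, and the lines were closer to each other than the splenocyte samples were. The level was 5.34-fold lower (−2.42 ± 0.20, n = 2 against 2; limma adjusted p = 0.00113; 95% interval −2.96 to −1.87). In such bulk RNA, fewer cells of a type and less RNA per cell cannot be told apart.

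Cd3e, the epsilon chain, gave no call. Its brighter probe (A_51_P455681, chromosome 9, 44750166 to 44750225, minus strand) read 8.06% and 11.5% in splenocytes, and 12.4% and 14.7% in the lines. Both lines lay just above both splenocyte samples, by less than the splenocyte samples differed from each other. The difference was 0.49 ± 0.24 (n = 2 against 2; limma adjusted p = 0.133; 95% interval −0.14 to 1.12), and over the alternatives in processing the adjusted p ranged from 0.0228 to 0.680. It passed the threshold under quantile normalization (0.79, adjusted p = 0.0330) and when arrays were centred on their median (0.90, adjusted p = 0.0228), which also move the median of all probes upward. The second Cd3e probe (A_52_P86404, chromosome 9, 44754896 to 44754955) was not well above background on any array and was not tested.

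Within the same arrays the CD3 genes thus differed from each other in how far and in which direction their signals shifted. Between Cd3g and Cd3d the shift was 6.77 on the log2 scale, and it lay between 6.44 and 7.10 for every pairing of a line with a splenocyte sample. Between Cd3g and Cd3e it was 3.87, and between Cd3d and Cd3e −2.91. The exact two-sided permutation test gave p = 0.333 for each of these, the smallest p that 2 samples against 2 allow.

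**Figure D1:**
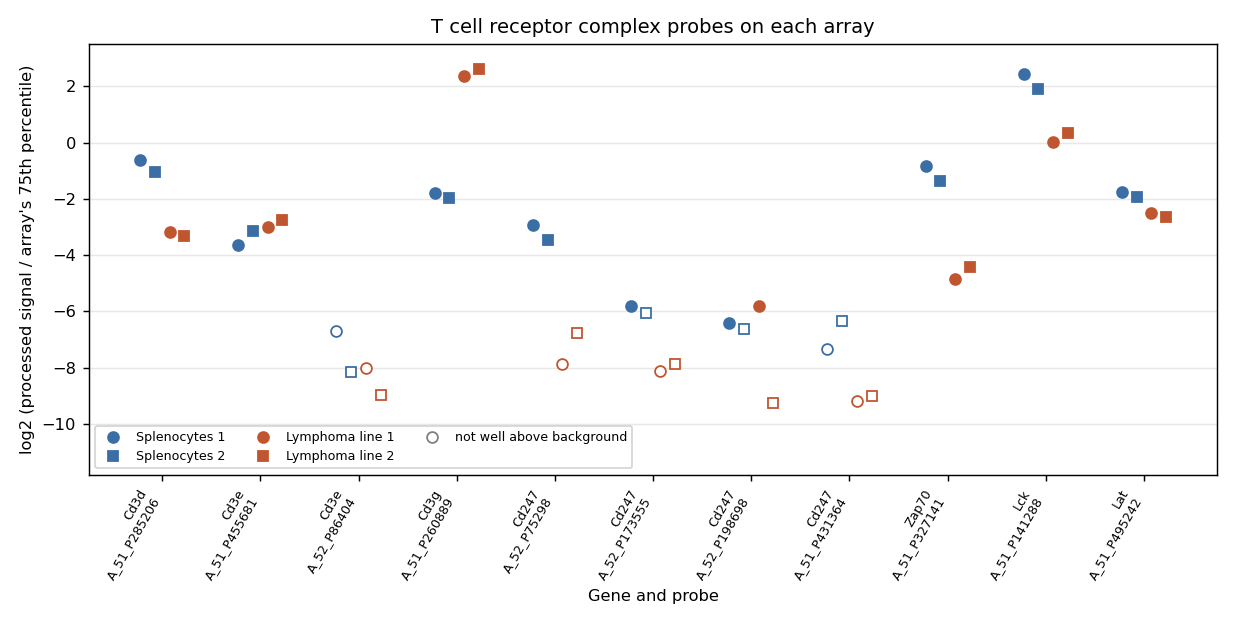
Signal of each member's probes on the 4 arrays, as log2 of the value relative to the array's 75th percentile, with splenocyte samples and lymphoma lines in separate colours and open points where the probe was not well above background. Cd3g sits higher in both lines, while Cd3d, Zap70, Lck and Lat sit lower in both and the brightest Cd247 probe is lower and not well above background in both lines.

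The other genes of this stretch of chromosome 9 gave a local comparison, chosen after the values of the members were seen. Of the 6 genes on each side of the CD3 cluster in the RefSeq order, 9 of 12 had a probe and 8 were tested, with 12 probes. A probe was higher in the lines for 3 genes and lower for 0. Over all gene names by their brightest tested probe, 30.7% were higher and 32.8% lower. At an unadjusted p under 0.05, 1 of the 12 probes were lower. Mpzl2, a cell adhesion molecule gene directly beyond Cd3e, was higher by 1.48 at its brighter probe. Its other probe was not well above background in splenocytes and was at least 1.68-fold higher in the lines (fitted difference 1.099). Jaml, a junction adhesion molecule gene, was higher by 0.77 ± 0.20 (limma adjusted p = 0.0256). Atp5l, an ATP synthase subunit gene, was higher by 0.72 ± 0.16 (limma adjusted p = 0.0168). The neighbours' differences ran from −0.60 to 1.48, so both the Cd3g and the Cd3d differences lay outside that range.

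**Figure D2:**
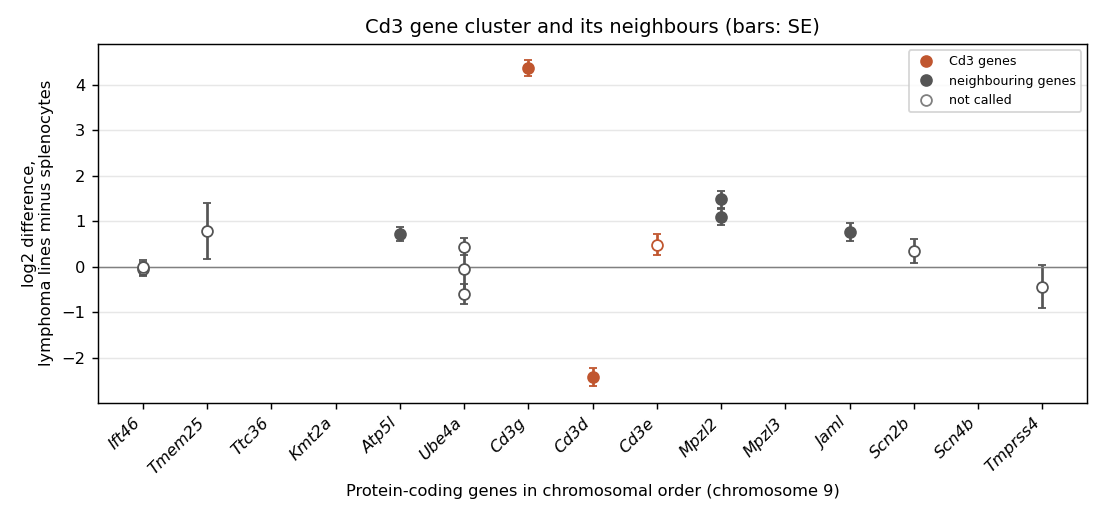
Log2 difference (lines minus splenocytes, bars are standard errors) of each tested probe of the CD3 genes and their neighbours on chromosome 9, in RefSeq gene order, with open points where the difference was not called. Cd3g at 4.36 stands above and Cd3d at −2.42 below the neighbours, which lie between −0.60 and 1.48.

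Cd247, the zeta chain with the most activation motifs of the complex, had 4 probes on chromosome 1, and they did not read alike. The brightest (A_52_P75298, 167698399 to 167698458, plus strand) read 13.02% and 9.02% in splenocytes, and 0.423% and 0.925% in the lines, where it was not well above background. The groups did not overlap. Against the dimmest signal called well above background on the line arrays, or the probe's own where higher, the lines were at least 13.04-fold lower. All bounds below are of this kind and hold for the main processing alone. Some alternatives gave differences smaller than the bounds. The fitted difference was −4.11 ± 0.44 (n = 2 against 2; limma adjusted p = 0.00203). It was −1.64 after normexp background correction and ran from −4.68 to −3.55 when 1 array was left out. This probe passed the filter through the splenocyte samples alone.

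The other Cd247 probes were dim. A_52_P198698 (167713822 to 167713881) read 1.17% and 1.01% in the splenocyte samples, 1.80% in line 1 and 0.163% in line 2. It was above background in splenocyte sample 1 and line 1, and the groups overlapped. Its difference of −1.001 ± 1.17 was not called (limma adjusted p = 0.488) and turned on 1 line: without line 1 it was −2.73 (adjusted p = 0.00396) and without line 2 it was 0.73 (adjusted p = 0.0417). Over all alternatives the adjusted p ran from 0.00396 to 0.758. A_52_P173555 (167693111 to 167694129) read 1.77% and 1.52% against 0.361% and 0.428% and was above background in splenocyte sample 1 alone. A_51_P431364 (167703840 to 167703899) read 0.618% and 1.24% against 0.171% and 0.194% and was above background nowhere. Both of these untested probes had the lower values in the lines.

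Zap70 and Lck, the kinases of the complex, were both lower in the lines. The Zap70 probe (A_51_P327141, chromosome 1, 36725911 to 36725970, plus strand) read 55.8% and 38.7% in splenocytes, and 3.45% and 4.69% in the lines. The groups were far apart, and the probe stayed well above background in both lines. The level was 11.6-fold lower (−3.53 ± 0.27, n = 2 against 2; limma adjusted p = 0.000917), or −2.49 after normexp background correction. The Lck probe (A_51_P141288, chromosome 4, 129050906 to 129050965, minus strand) read 536% and 376% in splenocytes, and 100.2% and 127% in the lines. The groups did not overlap, and the probe was well above background in both lines. The level was 3.98-fold lower (−1.99 ± 0.25, n = 2 against 2; limma adjusted p = 0.00309). Zap70 moved further than Lck within the arrays, by 1.54 on the log2 scale and by 1.48 to 1.60 over all pairings of a line with a splenocyte sample (exact two-sided permutation p = 0.333, the smallest possible).

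Lat, the adaptor phosphorylated by Zap70, had the smallest difference among the called members. Its probe (A_51_P495242, chromosome 7, 126155353 to 126155412, minus strand) read 29.7% and 25.8% in splenocytes, and 17.5% and 16.1% in the lines. The groups did not overlap, and the values within each were close. The level was 1.65-fold lower (−0.72 ± 0.16, n = 2 against 2; limma adjusted p = 0.0164). The call was lost without splenocyte sample 1 (−0.62, adjusted p = 0.101), without splenocyte sample 2 (−0.83, adjusted p = 0.0548), with arrays centred on their median (−0.32, adjusted p = 0.206) and without the filter on dim probes (adjusted p = 0.0509). Over the alternatives its adjusted p ran from 0.00917 to 0.206.

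**Figure D3:**
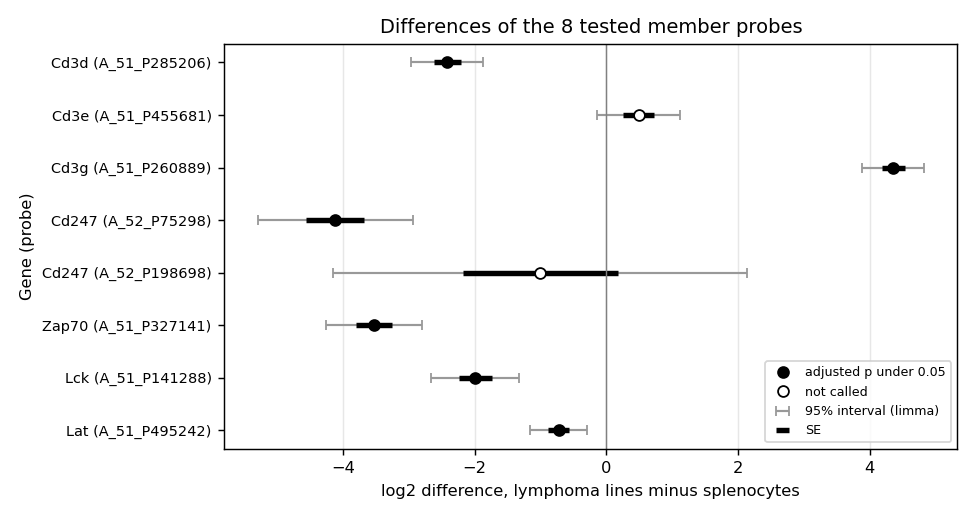
Log2 difference between lymphoma lines and splenocytes for the 8 tested member probes, with standard errors (thick bars) and 95% intervals from limma (thin bars), and open points where the difference was not called. The interval lies above 0 for Cd3g, includes 0 for Cd3e and the dim Cd247 probe, and lies below 0 for the other 5 probes.

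Counted over the 8 tested member probes, 5 were lower in the lines, 1 was higher and 2 were not called. Across all tested probes, 32.5% were lower, 32.3% higher and 64.8% called in either direction, so the number of calls among the members is near that background. Both lines lay below both splenocyte samples at 5 of the 8 probes, above both at 2, and overlapped at 1. Over all tested probes the shares were 42.9% below and 42.7% above, or 85.6% without overlap. By gene, with the brightest tested probe for each, 5 of 7 were lower, against 32.8% of all 18804 tested gene names, and 1 was higher, against 30.7%, with 63.5% called in either direction. The members' median difference was −1.99, beside −0.05 over all gene names tested by the same rule. The lower probes in these counts include Cd247 probe A_52_P75298, which passed the filter through the splenocyte samples alone.

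Of 31 further genes of T cell receptor signalling, 29 were tested, and 19 were lower in the lines, 3 higher and 7 not called, with a median difference of −1.32. For this and each list below, the share of all gene names by the same rule was 32.8% lower and 30.7% higher. Of the 29 genes, 4 were not well above background in either line and passed the filter through the splenocyte samples alone. Pag1, a membrane adaptor that recruits the inhibitory kinase Csk, was lower at all 3 of its tested probes: at least 492-fold at the brightest, at least 14.4-fold at A_51_P335945 and 30.2-fold at A_52_P299888 (−4.92 ± 1.12, limma adjusted p = 0.0178). Skap1, an adaptor for integrin activation after receptor engagement, was at least 74.4-fold lower, and Txk, a Tec-family kinase, was lower, at −5.70 ± 0.40 (limma adjusted p = 0.000759), or −3.75 after normexp background correction. The brightest probes of these 3 genes were bright in splenocytes, and those of Pag1 and Skap1 were not well above background in either line. Pag1 probe A_52_P299888 was well above background in line 1. Over the alternatives the differences were as small as −6.19 at the brightest Pag1 probe and −3.77 for Skap1, less than their bounds.

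The closest relatives and partners of the members in this list follow. Ptprc (CD45), the phosphatase that keeps Lck active, differed by −1.83 ± 0.14 (limma adjusted p = 0.000967), with its 4 probes between −4.80 and −1.61 and all lower. B220, on which the splenocytes were selected, is a form of CD45, and the part of that selection was not tested. Csk, which restrains Lck, differed by −1.40 ± 0.21 at its brightest probe (limma adjusted p = 0.00535) and by −0.08 ± 0.20 at the other (A_51_P124276, limma adjusted p = 0.740), so its probes disagree. Fyn, the Src-family relative of Lck, was lower, at −2.03 ± 0.49 (limma adjusted p = 0.0210). The Fyn call was lost without either splenocyte sample (−1.89 and −2.17), with the adjusted p between 0.00374 and 0.0733 over the alternatives. Lcp2 (SLP-76), the adaptor that joins Lat, gave −0.96 ± 0.34 and was not called (limma adjusted p = 0.0625). Lcp2 passed the threshold in 6 of 16 alternatives, normexp background correction (−0.85, limma adjusted p = 0.0383) among them, while in others the adjusted p reached 0.238. Without line 1 Lcp2 was −1.41.

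The list had 3 genes that were higher. Ubash3b, a phosphatase acting on Syk-family kinases, was higher by 1.60 ± 0.16 (limma adjusted p = 0.00171). Sla2, an adaptor that promotes receptor turnover, was higher by 1.21 ± 0.35 (limma adjusted p = 0.0362), but its other probe was not called (A_51_P252103, 0.33 ± 0.16). The phosphatase Ptpn22 was higher by 0.62 ± 0.17 (limma adjusted p = 0.0319). The calls of Sla2 and Ptpn22 were not stable. Sla2 was at 0.94 without splenocyte sample 2 and at 0.82 without line 2, and lost the call in both cases. Ptpn22 lost it without either splenocyte sample (0.70 and 0.53) or line 2 (0.49). The adjusted p reached 0.135 for Sla2 and 0.162 for Ptpn22. The exchange factor Vav1 (0.16 ± 0.14, limma adjusted p = 0.365) and the adaptor Nck1 (−0.18 ± 0.14, limma adjusted p = 0.314) had the smallest differences by brightest probe, and neither was called there. Another Nck1 probe, bright on all arrays, was lower (A_52_P563860, −1.26 ± 0.15, limma adjusted p = 0.00261), so Nck1 depends on the probe.

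The B cell counterparts of the complex were lower in the lines as well: 11 of 16 were lower, 2 higher and 3 not called, with a median of −1.37. Syk, the relative of Zap70, was lower, at −0.65 ± 0.15 (limma adjusted p = 0.0183), a call that was lost without splenocyte sample 1 (−0.66) or 2 (−0.63) and whose adjusted p ranged from 0.00511 to 0.317. Lyn, the main Src-family kinase of B cells, was lower, at −1.52 ± 0.16 (limma adjusted p = 0.00181), and Lat2, the relative of Lat, at −1.71 ± 0.20 (limma adjusted p = 0.00248). Fcer1g, a signalling chain related to zeta, was lower, at −2.46 ± 0.24 (limma adjusted p = 0.00156). The Src-family kinases named from this list did not move together. Fgr was lower (−2.71 ± 0.18), Yes1 was higher by 3.71 ± 0.16 (limma adjusted p = 0.000297; 1.72 after normexp background correction), and Blk was not called (−0.40 ± 0.22, limma adjusted p = 0.176; −0.64 and called without line 1). Src was higher by 1.62 at its brightest probe (0.34 and not called after normexp) and lower, at −1.41 at another, so it has no settled direction. Cd79a, the B cell receptor chain that matches CD3 in function (−0.17 ± 0.21), and the phospholipase Plcg2 (−0.13 ± 0.17) were not called. Cd79b, the partner of Cd79a, named here after its value was seen, was lower, at −1.52 ± 0.27 (limma adjusted p = 0.00818).

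**Figure D4:**
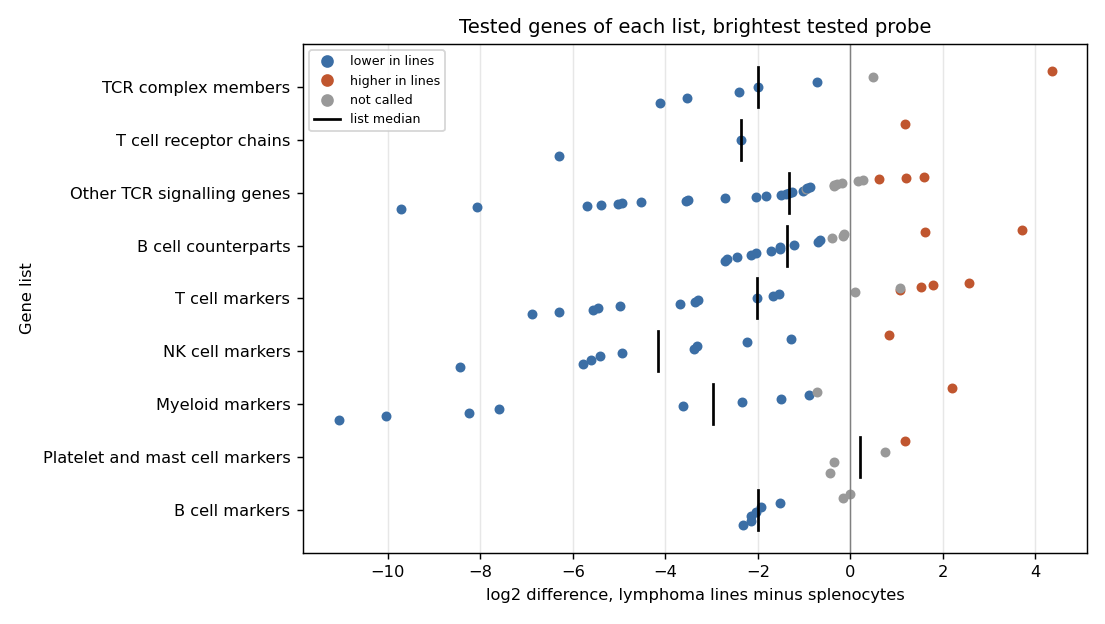
Log2 difference (lines minus splenocytes) of each tested gene by its brightest probe, in the member genes, the other T cell receptor signalling genes, the B cell counterparts and the marker lists, coloured by call, with the list median as a bar. The medians are −1.99 for the members, −1.32 for the other signalling genes, −1.37 for the B cell counterparts and −4.16 for NK cell markers.

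The antigen-binding chains themselves were represented by few probes, and 7 of 17 names had one. Of these 3 were tested, with 2 lower and 1 higher and a median of −2.37. Tcra was lower, at −2.37 ± 0.38 (limma adjusted p = 0.00633), and all 3 of its tested probes were lower. Tcrb-V13 was lower, at −6.30 ± 0.20 (limma adjusted p = 0.000161) (−4.52 after normexp), and all 5 tested probes were lower. Probe A_52_P184629 (chromosome 6, from 41065152) gave −0.69. Probe A_52_P557517 (from 41071176) was dim in both lines and at least 2.60-fold lower (fitted difference −1.43). The others, the brightest among them, lay between 41476339 and 41477923. Of these, A_51_P407832 and A_51_P478172 were dim in both lines, and at least 83.1-fold and 119-fold lower (fitted differences −7.03 and −9.01). Variable segments form a multigene family in which probes may cross-hybridise, and whether that bears on these values was not tested. Ptcra, the surrogate alpha chain of immature T cells, was higher by 1.18 ± 0.19 (limma adjusted p = 0.00651) at a dim probe, and its sign turned after normexp background correction (−0.20).

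Markers of other cell types that a B220+ fraction can hold were compared in the same way. Of 18 T cell markers 17 were tested, with 11 lower, 4 higher and 2 not called, and a median of −2.02. Of the 17, 4 were not well above background in either line and passed the filter through the splenocyte samples alone. The summed level of the 17 markers, in multiples of the array's 75th percentile, was 17.9 and 16.7 in splenocytes, and 12.6 and 12.0 in the lines. Such a sum is carried by its brightest probes, here Cd2 and Tbx21 in splenocytes, and does not measure a share of cells. In the lines the brightest were Cd5, Cd6 and a Cd8b1 probe described below. Among the defining markers, Thy1 was at least 86.3-fold lower and Cd8a at least 23.3-fold lower at its brightest probe (at least 2.96-fold and 22.0-fold at the others), and neither was well above background in a line. Over the alternatives the differences were as small as −3.66 for Thy1 and −2.13 at the brightest Cd8a probe, less than their bounds. Tbx21, a transcription factor of T and NK cells, was lower, at −6.30 ± 0.48 (limma adjusted p = 0.000903). Cd2 was lower, at −3.29 ± 0.24 (limma adjusted p = 0.000794), a gene that mouse B cells also express.

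The T cell markers that were higher were Cd5 (2.56 ± 0.22, limma adjusted p = 0.00116), Cd6 (1.79 ± 0.23, limma adjusted p = 0.00343), Il7r (1.07 ± 0.28, limma adjusted p = 0.0275) and the brightest probe named Cd8b1. Cd5 and Il7r are also known from B-1 cells and from B cell precursors. The Il7r call was lost without splenocyte sample 1 (1.14) or 2 (0.998), with an adjusted p of up to 0.105. The brightest Cd8b1 probe (A_52_P511269, higher by 1.53) is placed by the array file on chromosome 5, at 115404420 to 115404479, although the gene lies on chromosome 6. The other Cd8b1 probe (A_51_P150433, chromosome 6, 71266583 to 71266641) was lower, at −7.31. With that probe, an alternative chosen after seeing the data, the list has 12 lower, 3 higher and 2 not called, and a median of −3.29. Cd4 was not called at its brightest probe (0.09 ± 0.15, limma adjusted p = 0.607), while a dimmer probe (A_51_P236573) was at least 1.61-fold higher. Cd28 gave 1.07 ± 0.41 (limma adjusted p = 0.0787) and passed the threshold in 4 of 16 alternatives, quantile normalization (1.47) among them. Without line 1 Cd28 was 1.65.

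**Figure D5:**
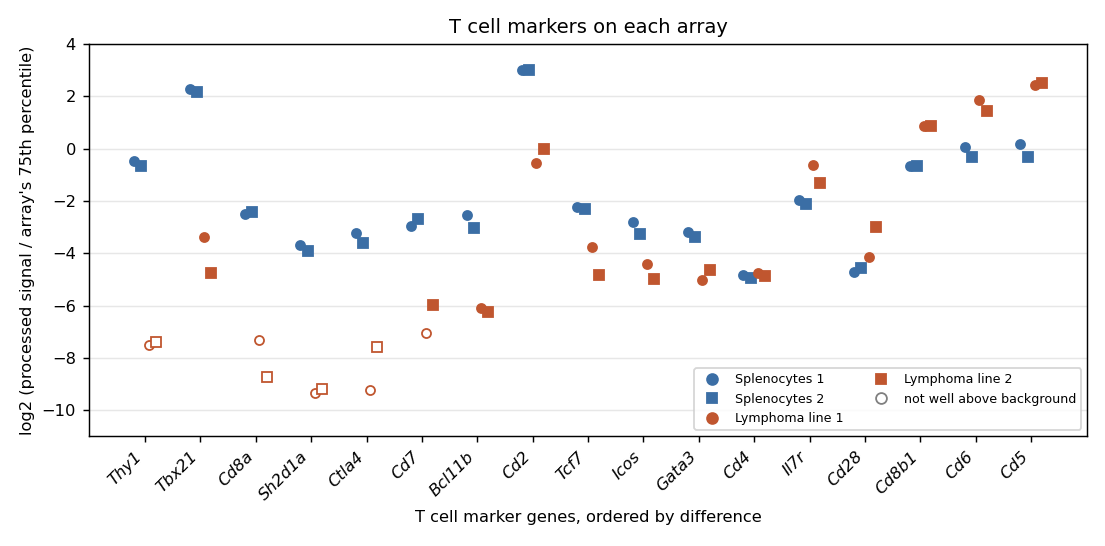
Log2 signal relative to the array's 75th percentile of each tested T cell marker's brightest probe on the 4 arrays, ordered by the difference between the groups, with open points where the probe was not well above background. Thy1, Cd8a, Tbx21 and Cd2 are far lower in both lines and Cd5 and Cd6 higher, and the Cd8b1 points shown are those of the probe that the array file places on chromosome 5.

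NK cells express Cd247, Zap70 and Lck too, and 10 of their markers were tested. Of these, 9 were lower and 1 was higher, with a median of −4.16, or −3.40 with dim genes at their bound. Over all gene names 32.8% were lower. Of the 10 markers, 5 were not well above background in either line and passed the filter through the splenocyte samples alone. The summed level of the 10 markers was 4.05 and 4.496 in splenocytes, and 0.732 and 0.557 in lines 1 and 2. Klrd1 was at least 75.6-fold and Gzma at least 18.6-fold lower, Ccl5 was lower, at −5.61 ± 0.17 (−4.38 after normexp), and Klrb1c at −1.29 ± 0.19. Over the alternatives the differences were as small as −3.85 for Klrd1 and −1.93 for Gzma, less than their bounds. Prf1 was higher by 0.85 ± 0.20 (limma adjusted p = 0.0207), a call lost without splenocyte sample 1 (0.75), splenocyte sample 2 (0.94) or line 1 (0.65), with an adjusted p of up to 0.1003.

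Of 10 tested myeloid markers 8 were lower, 1 was higher and 1 was not called, with a median of −2.98 and a summed level of 14.9 and 9.75 against 0.306 and 0.460. Of these markers, 3 were not well above background in either line and passed the filter through the splenocyte samples alone. Lyz2 was at least 467-fold lower at its brightest probe and at least 2.79-fold lower at the other, and S100a8 at least 83.0-fold lower. Over the alternatives the differences were as small as −6.18 at the brightest Lyz2 probe and −3.73 for S100a8, less than their bounds. S100a9 differed by −10.03 ± 0.42 (limma adjusted p = 0.000262), or −6.84 after normexp. Fcgr1 was lower, at −0.90 ± 0.23 (limma adjusted p = 0.0264), at its brightest probe and not called at another (A_52_P47846, 0.38 ± 0.39). It was not called when splenocyte sample 1 (−0.73), splenocyte sample 2 (−1.07) or line 1 (−0.68) was left out. Siglech was higher by 2.20 ± 0.57 (limma adjusted p = 0.0264), but not without splenocyte sample 1 (1.62) or line 2 (1.61). Their adjusted p reached 0.117 and 0.149, and Mpo was not called (−0.71 ± 0.83, limma adjusted p = 0.485). Platelet and mast cell markers showed little: of 4 tested, 1 was higher (Ms4a2, at least 1.64-fold) and 3 were not called, with a median of 0.20. Ms4a2 lost its call without splenocyte sample 1, line 1 or line 2 (0.72, 1.26 and 1.1). Itga2b (0.76 ± 0.39), Gp1bb (−0.36 ± 0.15) and Hdc (−0.44 ± 0.16) were the other tested markers.

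Of the 8 B cell markers, 6 were lower, 0 higher and 2 not called by limma, with a median of −1.99 and, at an unadjusted p under 0.05, 0 higher. Cd22 (−2.32 ± 0.19) and the transcription factor gene Ebf1 (−2.14 ± 0.21) were lower. A second Ebf1 probe was not well above background in the lines and was at least 88.5-fold lower (fitted difference −8.44 ± 0.24). Ms4a1, which encodes CD20, was not called at −0.01 ± 0.17 (limma adjusted p = 0.976). The part of any of these cell types in the values of Cd3d, Cd247, Zap70, Lck and Lat was not tested.

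For the 6 members bright on all 4 arrays, the genes with the most similar pattern were found by the Euclidean distance between log2 values centred on each probe's mean, over 4 arrays and 20600 probes bright on all of them. Nearest to Cd3g were Rpl3l (distance 0.135) and Plekhh3 (0.186), both higher in the lines. Nearest to Cd3d were Sesn3 (0.0916) and Mst1 (0.0971), to Zap70 Lair1 (0.132) and AI451617 (0.160), and to Lck Ddx50 (0.102) and Rrn3 (0.121). Nearest to Lat were Lyzl4 (0.0413) and Mapk9 (0.0433), and to Cd3e 4833419E13Rik (0.0299) and Gpat3 (0.0873, named A230097K15Rik in the array file). Members were left out of this search, so it does not say how alike the members are. None of these nearest genes is in the lists above.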

How the data were processed

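Total RNA was labelled with Cy3 and hybridised to Agilent 1-colour mouse arrays, per the labels' protocols. The deposited files hold 1 array each, with the authors' scanner output from Agilent Feature Extraction (9.5.1.1 per the file headers, 9.5 per the submitters' processing notes), and the value used is the deposited processed signal intensity, already background-corrected. Probe positions are those of the file headers' mm8 build. The deposited value table of the series was used as an alternative, and it holds the authors' values on a linear intensity scale that differed from the scanner values by 1 factor an array (1, 2.10, 0.961 and 0.820), with no centring of genes.

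Each signal was divided by its array's 75th percentile (1078, 514, 1122 and 1315 in the order of splenocyte samples 1 and 2 and lines 1 and 2) and taken to log2. Control spots and spots marked as outliers were left out, which removed 153 probes, and spots of a probe were averaged. Probes that 2 or more of the 4 arrays marked as well above background were tested with limma 3.58.1 in R 4.3.3 (lmFit and eBayes, residual df 2, prior df 2.42), with Benjamini-Hochberg adjustment over all 27404 probes and no covariate. The number of arrays limits the precision. A gene of a list was represented by its brightest tested probe, and genes were named by a fixed rule: every member probe, and from each list the genes called against the majority, the 3 largest and 2 smallest differences, and the close relatives of members. Some genes that the rule names are not reported here, though they stay in the list counts. A tested probe dim on both arrays of a group was given as a bound, in places with its fitted difference as well.

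The members and lists were chosen with earlier results of these data known. Replicate numbers are shared across the groups, but deviations of same-numbered samples correlated at 0.0113, so they were not treated as pairs. Promoters and gene order came from RefSeq (GRCm38.p6), in which all 7 members matched by symbol. No genome of the mm8 build was used here, so exons and UTRs under the probes are not stated. Alternatives covered the scaling, background correction, filters, probe choice, eBayes options, the replicate block and each array left out.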

Additional observations from a re-analysis of the deposited data

How the results depend on the processing

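The members gave 125 values under the alternatives, of which 117 kept their direction and their side of the threshold. The exceptions were Cd3e, which passed under quantile normalization (0.79) and with arrays centred on their median (0.90), Lat, which was lost when centred (−0.32) and without the filter on dim probes (−0.72) and ran from −0.83 to −0.62 with 1 array left out, and Cd247 probe A_52_P198698, which ran from −2.73 to 0.73 with 1 array left out, the sign turning without line 2. The cause was not tested, beyond the fact that centring shifts the median of all probes by 0.41 and quantile normalization by 0.15, while normexp shifts it by −0.28 and taking the percentile from bright probes alone by −0.13. Centring gave 6555 probes lower and 11653 higher, against 8895 and 8860. The main count of 17755 called probes stayed within 1.5 times under every alternative run (13162 to 17021 with 1 array left out). With the replicate number as a block, 16749 probes were called and no call of a member changed.

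Among 64 other genes, 906 of 1005 values kept direction and call, 56 lost and 24 gained the call and 19 turned in sign. Those that turned were Gp1bb (0.036) and Ms4a1 (0.36) under quantile normalization. Under centring they were Nck1 (0.22), Plcg2 (0.28), Cd79a (0.24), Gp1bb (0.050), Ms4a1 (0.40) and Blk (0.0083). Under the percentile from bright probes it was Cd4 (−0.034), and under normexp Ptcra (−0.20), Cd4 (−0.38), Ms4a2 (−0.40), Itga2b (−0.23) and Ms4a1 (0.0064). With 1 array left out, Mpo ran from −1.86 to 0.43, Plcg2 from −0.27 to 0.0062, Cd79a from −0.39 to 0.055 and Ms4a1 from −0.14 to 0.12.

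The slide as a block was not run, since all arrays share 1 slide. Where a probe was dim, as 3 of the 4 Cd247 probes were, the signal over background limits what can be said. Cd247 gave no value when probes had to be above background on all arrays.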
